A study of Mus musculus with 6 samples.

Results

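The genes described here encode 3 signalling systems of blood vessels: adrenomedullin with its receptor parts (Adm, Calcrl, Ramp1, Ramp2 and Ramp3), apelin with its receptor (Apln and Aplnr), and the main vascular receptors for sphingosine 1-phosphate, or S1P (S1pr1, S1pr2 and S1pr3). They were chosen by name with earlier results of these data known, 10 of the 34745 genes counted in the series. Of the 10, 9 passed the filter on low counts, Aplnr being the exception. RNA was sequenced from cardiac fibroblasts isolated from the left ventricle of mice on Day 7 after myocardial infarction (MI), which was produced by ligating the left anterior descending coronary artery. The 6 libraries were 3 labelled KO, from KDM5B knockout mice, and 3 labelled WT, from wild-type mice, and every animal was described as male, 8-10 weeks old and infarcted, so that no uninjured or sham-operated group was compared. The knockout was made with CRISPR/Cas9 in all cells of the animal, by deleting the part of Kdm5b that encodes the JmjC domain, the catalytic domain of this histone H3 lysine 4 demethylase. The comparison asks how the RNA of cells prepared as fibroblasts differs between these genotypes after MI.

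Adrenomedullin is a secreted peptide that widens vessels and tightens the endothelial barrier. Its receptor is a pair: Calcrl, a G protein-coupled receptor, reaches the cell surface only with a receptor activity-modifying protein (RAMP), and the RAMP sets which ligand is bound. With Ramp1 the pair prefers calcitonin gene-related peptide (CGRP), and with Ramp2 or Ramp3 it binds adrenomedullin. Apelin is a peptide made by sprouting endothelial cells, among others, and acts through Aplnr. S1P is a lipid carried in plasma, and of its receptors S1pr1 couples to Gi proteins and stabilises endothelial junctions, whereas S1pr2 and S1pr3 also couple to G12/13 and Gq and are found in mural cells and fibroblasts.

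RefSeq promoter windows of 300 bases (250 before the annotated start and 50 from it, GRCm38.p6, the assembly of mm10) were matched for 7 of the 10 genes. The windows of Apln, Calcrl and Ramp3 are shown because these are the genes with higher RNA in the KO libraries for which a window was matched. They were searched on both strands for ACGTG, the core of the hypoxia response element, for CCGGAA, an ETS core with its flank, and for CACCC, a core bound by KLF factors. The matches in the windows shown did not overlap one another. Capitals mark the matches, and each sequence runs 5′ to 3′ on the strand of its gene.
Apln (chrX:48034804-48035103, minus strand): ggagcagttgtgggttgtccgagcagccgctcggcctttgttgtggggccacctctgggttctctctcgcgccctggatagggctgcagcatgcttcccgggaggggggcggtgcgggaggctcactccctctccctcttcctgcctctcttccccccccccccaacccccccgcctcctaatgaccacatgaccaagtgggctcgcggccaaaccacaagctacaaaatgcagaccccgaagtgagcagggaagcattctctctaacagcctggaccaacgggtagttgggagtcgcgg
Calcrl (chr2:84425217-84425516, minus strand): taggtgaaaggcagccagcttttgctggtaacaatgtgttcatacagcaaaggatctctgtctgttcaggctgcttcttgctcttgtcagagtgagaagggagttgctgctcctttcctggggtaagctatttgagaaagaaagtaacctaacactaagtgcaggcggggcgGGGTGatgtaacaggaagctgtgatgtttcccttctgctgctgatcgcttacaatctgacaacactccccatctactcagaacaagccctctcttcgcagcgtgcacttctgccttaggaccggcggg
Ramp3 (chr11:6658283-6658582, plus strand): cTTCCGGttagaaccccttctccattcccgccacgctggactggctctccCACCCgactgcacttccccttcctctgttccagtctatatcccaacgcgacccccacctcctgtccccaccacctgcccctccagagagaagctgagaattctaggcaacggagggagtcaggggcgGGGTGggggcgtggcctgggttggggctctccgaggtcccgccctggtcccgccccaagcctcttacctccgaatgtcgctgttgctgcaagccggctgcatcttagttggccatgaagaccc
Calcrl held 1 CACCC match, on the opposite strand, whose leftmost base lies at position -78 from the start. Ramp3 held a CCGGAA match on the opposite strand at -249 and CACCC matches at -200 and -73, the latter on the opposite strand. The Apln window held none of the 3 motifs, and neither did that of Adm. Across the 7 windows, CACCC occurred in 5, CCGGAA in 2 and ACGTG in 1, the last in S1pr3. Of all 32851 windows, 57.5% held CACCC, 14.9% CCGGAA and 19.6% ACGTG. The windows of Apln and Ramp3 were rich in G and C (64.0% and 63.7%, against a median of 52.7% over all windows) and held 15 CpG dinucleotides each, against a median of 7. Calcrl, at 50.7% and 7 CpG dinucleotides, lay near those medians.

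The libraries held 12025403 to 15329427 counts on genes, so that a floor of 3 counts corresponded to 0.196 to 0.249 CPM, that is, counts scaled to the size of the library. Kdm5b, the targeted gene, had 98.1, 107 and 105 CPM in KO-1, KO-2 and KO-3 and 108, 129 and 123 CPM in WT-1, WT-2 and WT-3, a log2 fold change of -0.22 ± 0.07 (SE) that missed the threshold (adjusted p = 0.0574, edgeR). Its RNA was thus still read in the libraries labelled KO, 13.9% lower on average. These counts cover the whole gene and do not show whether the deleted part was read, and the libraries are called by their labels. Although the animals were described as male, every library held reads of Xist, a transcript of female cells (90.5 to 131 CPM), as well as of the Y-linked gene Ddx3y (64.5 to 90.8 CPM). Whether a library came from 1 animal was not stated, so the p-values measure only the spread between libraries, which may be technical. At an adjusted p under 0.05, 17.7% of the 14084 genes that entered the test had more RNA in the KO libraries and 12.5% less, and in 24.7% every KO library lay above every WT library, in 22.4% below.

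In this comparison the vascular genes split. Calcrl, Ramp2, Ramp3, Apln and S1pr1 were higher in the KO libraries, by 5.56- to 39.8-fold, whereas Adm, S1pr2 and S1pr3 were lower, by 12.9% to 27.0%, and Ramp1 did not pass the test. Thus 5 of the 9 tested genes were higher, set against the 17.7% of all genes, and 3 were lower, set against 12.5%. These counts are a description only. The genes were chosen with earlier results of these data known, and Ramp3 entered the test through the KO libraries alone. When libraries were scaled on cardiomyocyte and macrophage markers instead (marker scaling), 6 of these genes were higher and 0 lower, beside 8404 higher and 47 lower of all 14084 genes. The KO and WT libraries did not overlap for any of the 9, with KO above WT in 5 (24.7% of all genes) and below in 4 (22.4%). With 3 libraries a group, an exact two-sided permutation test of a single gene cannot go below p = 0.1, so the calls rest on the fit across all genes. In the plot of levels by library, the rises are visible without any test, whereas the falls are small and depend on the scaling.

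**Figure D1:**
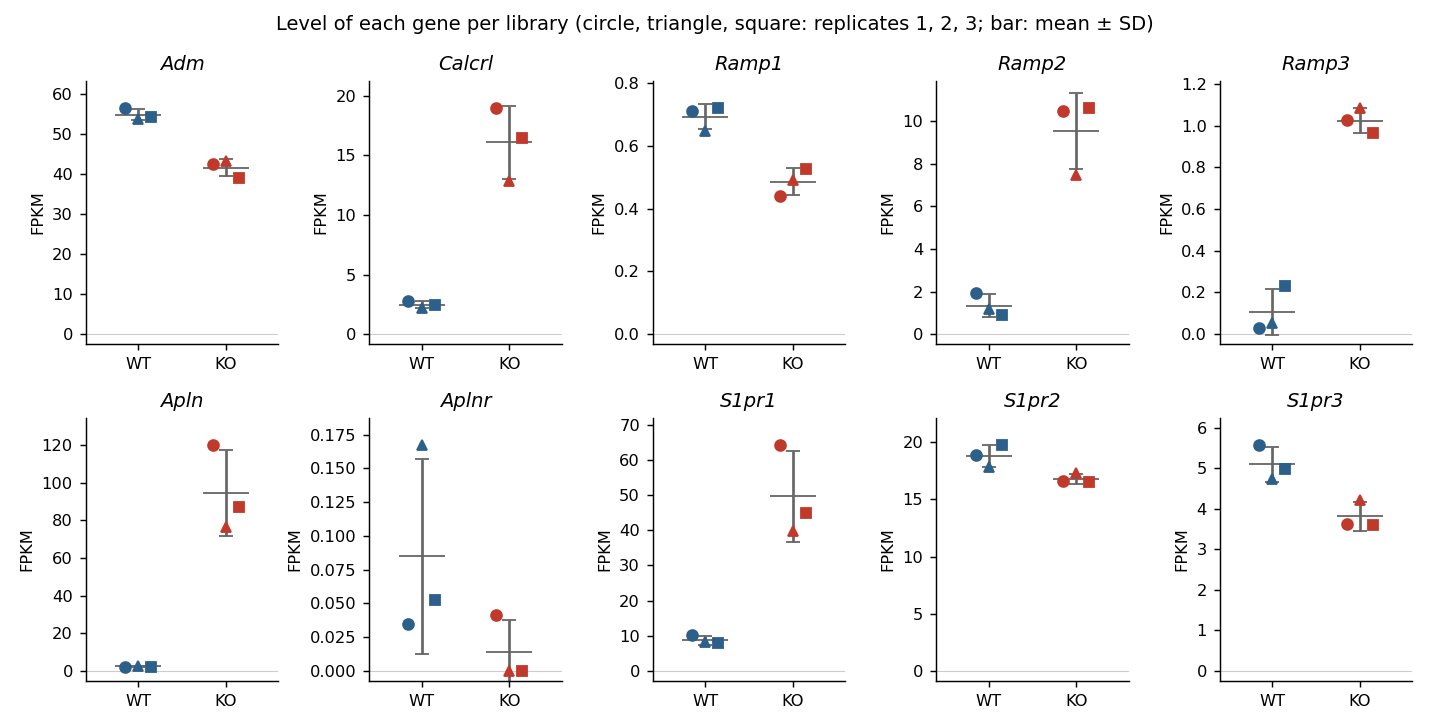
Level of each gene in FPKM (linear axes, each with its own range) in the 3 WT libraries (blue) and 3 KO libraries (red), with the mean ± SD. Calcrl, Ramp2, Ramp3, Apln and S1pr1 were higher in every KO library, Adm, Ramp1, S1pr2 and S1pr3 were lower in every KO library, and Aplnr stayed at or below 0.167 FPKM.

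The receptor of adrenomedullin rose strongly while its ligand fell slightly. Adm, on chromosome 7 (chr7:110627661-110629820, plus strand, mm10), had 42.7, 43.2 and 39.2 FPKM (fragments scaled for gene length and library depth by the authors) in KO-1, KO-2 and KO-3 and 56.5, 53.8 and 54.4 FPKM in WT-1, WT-2 and WT-3. All KO libraries were lower, with means of 41.7 ± 2.19 and 54.9 ± 1.45 FPKM (SD, n = 3 each), and the log2 fold change was -0.43 ± 0.06 (SE, adjusted p = 0.000851, edgeR). The fall of Adm was close to the medians of the fibroblast, mural cell, cardiomyocyte and macrophage markers (-0.41, -0.41, -0.42 and -0.39), given with the cell type markers. It kept its call in 14 of 15 other settings. The exception was marker scaling, which raises the log2 fold changes of all genes by 0.391 at the median and left Adm at -0.04 (adjusted p = 0.583).

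Calcrl (chr2:84330626-84425411, minus strand) had 19.0, 12.8 and 16.5 FPKM in the KO libraries and 2.74, 2.22 and 2.47 FPKM in the WT libraries. The lowest KO library, KO-2, was still far above the highest WT library, WT-1. The rise was 6.34-fold (95% interval 5.04 to 7.99), a log2 fold change of 2.67 ± 0.15 (SE, adjusted p = 1.17e-05, edgeR), on 1352 to 2004 counts in the KO and 262 to 314 in the WT libraries.

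The 3 RAMP genes did not move together. Ramp2 (chr11:101246028-101259546, plus strand), the adrenomedullin partner of Calcrl, had 10.5, 7.46 and 10.6 FPKM in the KO libraries and 1.95, 1.18 and 0.887 FPKM in the WT libraries. It rose 6.93-fold (95% interval 4.61 to 10.4), a log2 fold change of 2.79 ± 0.26 (SE, adjusted p = 0.000158, edgeR), a size close to that of Calcrl. The WT libraries spread more here than for Calcrl, from 71 counts in WT-3 to 158 in WT-1.

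Ramp2 overlaps Vps25, a subunit of the ESCRT-II sorting complex, over 5840 bases of the same strand, so its counts need a check that strand cannot give. In GENCODE M21, 1 of the 8 Ramp2 transcripts, Ramp2-203, annotated as a target of nonsense-mediated decay, shares exonic sequence with Vps25 (1103 bases), and the other 7 share none. Vps25 had 271, 252 and 271 counts in the KO libraries and 327, 332 and 447 in the WT libraries, a log2 fold change of -0.40 ± 0.15 (SE, adjusted p = 0.0821, edgeR). The point estimates of the overlapping genes therefore had opposite signs, and Ramp2 had fewer counts than Vps25 in every WT library and more in every KO library. How reads in the shared part were assigned was not given in the sources used here, and their share of the Ramp2 counts was not tested. Adm and Ramp3 each overlap a gene on the opposite strand, Gm28863 and Gm11978, which had at most 3 and 0 counts per library.

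Ramp3 (chr11:6658521-6677475, plus strand), the other adrenomedullin partner, had 30, 35 and 36 counts in the KO libraries and 1, 2 and 8 in the WT libraries, or 1.03 ± 0.06 against 0.105 ± 0.110 FPKM (SD, n = 3 each). It was low in every library, and only the KO libraries lifted it over the filter. The summed counts, 101 against 11, gave a ratio of 9.85 after scaling for depth (95% counting interval 5.27 to 20.3), and the log2 fold change was 3.22 ± 0.49 (SE, adjusted p = 0.0019, edgeR). Its size depends on WT-3, without which the log2 fold change was 4.46, and on the pseudocount, since it was 0.88 by limma on log2(FPKM + 1).

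Ramp1 (chr1:91179822-91225196, plus strand), the CGRP partner, had 17, 21 and 26 counts in the KO libraries and 33, 31 and 33 in the WT libraries. The KO libraries lay below the WT libraries, but the log2 fold change of -0.54 ± 0.21 (SE) missed the threshold by edgeR (adjusted p = 0.0954), with an interval of -1.03 to -0.04. By limma on log2(FPKM + 1) and log2(FPKM + 0.1) it passed (adjusted p = 0.0348 and 0.0468).

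The RAMP transcripts also had another make-up. Ramp2 made up 87.8%, 82.6% and 87.7% of the summed RAMP FPKM in the KO libraries and 72.5%, 62.7% and 48.3% in the WT libraries, a difference of 24.8 percentage points, while Ramp1 fell from 33.3 ± 6.43% to 4.49 ± 0.893% (SD, n = 3 each). The summed RAMP level was 11.03 ± 1.73 FPKM in the KO and 2.14 ± 0.477 FPKM in the WT libraries. The log2 ratio of Adm to Calcrl was 1.39 ± 0.31 in the KO and 4.48 ± 0.12 in the WT libraries and so dropped by 3.09. The Ramp2 share and the ratio of Adm to Calcrl did not overlap between the groups, and each gave p = 0.1 by a two-sided exact permutation test (adjusted p = 0.1 over the 3 shares and ratios tested), the smallest that 3 against 3 allows. With exonic lengths of GENCODE M21 in place of the authors' gene lengths, the Ramp2 share was 87.2 ± 2.82% against 69.5 ± 12.3%.

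**Figure D2:**
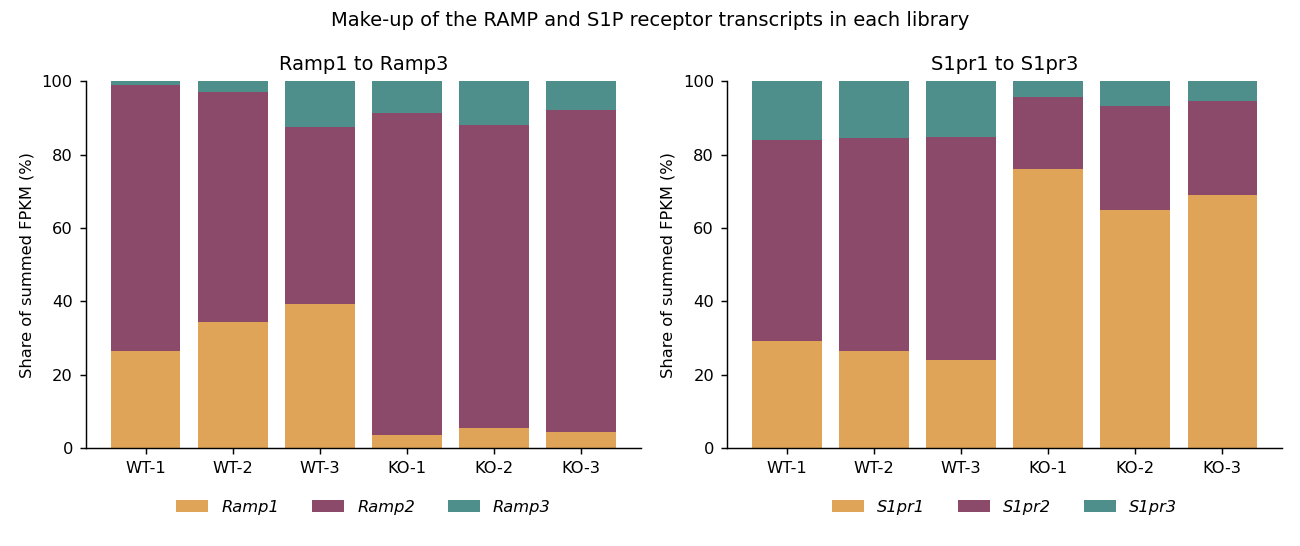
Share of each gene in the summed FPKM of Ramp1 to Ramp3 (left) and of S1pr1 to S1pr3 (right), as stacked bars that start at 0 and reach 100% in each library. The Ramp1 part is 26.5% to 39.2% in the WT and at most 5.45% in the KO libraries, and S1pr1 is the largest part in the KO libraries, S1pr2 in the WT libraries.

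Of the other genes of the adrenomedullin and CGRP pathway, 10 were listed, 6 were tested, 2 were higher and 2 lower (33.3% each way, beside 17.7% higher and 12.5% lower over all genes). Under marker scaling 3 were higher and 0 lower. The median log2 fold change was -0.08 against -0.02 over all genes tested. Gpr182, a scavenging receptor of endothelial cells once taken for an adrenomedullin receptor, had 85, 99 and 193 counts in the KO and 16, 21 and 4 in the WT libraries (log2 fold change 3.23 ± 0.42, SE, adjusted p = 0.000941, edgeR). Like Ramp3, it passed the filter only through the KO libraries, so its place in the count above is a description. The log2 fold change of Gpr182 was 1.39 by limma on log2(FPKM + 1). Ackr3, a decoy receptor for adrenomedullin and CXCL12, rose by 0.75 on the log2 scale (adjusted p = 0.00248, edgeR), from a mean of 5.83 to 10.0 FPKM. Both genes that fell act on the ligand side: Adm2, a related peptide, fell by 25.2% (adjusted p = 0.00783, edgeR), and Pam, the enzyme that amidates such peptides, fell by 17.8% (adjusted p = 0.004, edgeR). Both kept direction and call in 14 of 15 other settings, the exception being marker scaling, which raises all genes by 0.391 at the median and put Pam at 0.11 on the log2 scale. Crcp and Mme did not pass the test, and the CGRP genes Calca and Calcb, the calcitonin receptor gene Calcr and the amylin gene Iapp had 0 to 8 counts per library and were not tested.

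Apelin showed the largest fold of the 10 genes. Apln (chrX:48025146-48034853, minus strand) had 120, 76.2 and 86.9 FPKM in the KO libraries and 2.24, 2.50 and 2.18 FPKM in the WT libraries. Every KO library was far above every WT library, and the WT values differed little among themselves. The rise was 39.8-fold (95% interval 29.6 to 53.6), a log2 fold change of 5.32 ± 0.19 (SE, adjusted p = 2.28e-06, edgeR), on 3184 to 4547 counts against 98 to 117.

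The receptor of apelin was hardly read. Aplnr (chr2:85136225-85139923, plus strand) had 2, 0 and 0 counts in KO-1, KO-2 and KO-3 and 2, 10 and 3 in WT-1, WT-2 and WT-3. A count of 0 allows up to 0.226 CPM in KO-2 and 0.196 CPM in KO-3, for counting error only. The groups overlapped, p was 0.2 by the two-sided exact permutation test, and the ratio of WT to KO counts, 15 to 2, was 6.99 with a 95% counting interval of 1.63 to 63.0 that takes no account of the spread between libraries. WT-2 held 10 of the 15 WT counts. Since Aplnr was at 0 in KO-2 and KO-3, the ratio of Apln to Aplnr has no finite value there, and it was not compared between the groups. Apela, the second ligand of this receptor, had 1 to 9 counts per library and was not tested.

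S1pr1 rose, whereas S1pr2 and S1pr3 were slightly lower. S1pr1 (chr3:115710433-115715072, minus strand) had 64.3, 39.7 and 44.9 FPKM in the KO libraries and 10.1, 8.14 and 7.84 FPKM in the WT libraries. Every KO library was above every WT library, and KO-1 stood highest. The rise was 5.56-fold (95% interval 4.15 to 7.44), a log2 fold change of 2.47 ± 0.18 (SE, adjusted p = 4.98e-05, edgeR).

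S1pr2 (chr9:20965952-20976793, minus strand) had 16.6, 17.3 and 16.5 FPKM in the KO libraries and 18.9, 17.9 and 19.8 FPKM in the WT libraries. The groups did not overlap, but KO-2 and WT-2 were separated by little. The fall of 12.9% (log2 fold change -0.20 ± 0.06, SE, adjusted p = 0.0462, edgeR) passed the threshold narrowly and missed it in 12 of 15 other settings, among them DESeq2 (adjusted p = 0.125), and under marker scaling the sign turned, to 0.19 on the log2 scale (adjusted p = 0.0338, edgeR).

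S1pr3 (chr13:51408618-51422797, plus strand) had 3.62, 4.22 and 3.59 FPKM in the KO libraries and 5.58, 4.74 and 4.98 FPKM in the WT libraries. All KO libraries were lower, and the fall of 27.0% (log2 fold change -0.45 ± 0.11, SE, adjusted p = 0.0134, edgeR) was of the size of that of Adm. It missed the threshold without KO-3 (adjusted p = 0.0513) and under marker scaling (adjusted p = 0.605).

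The make-up of the S1P receptor transcripts differed between the groups. S1pr1 made up 76.1%, 64.8% and 69.1% of the summed S1pr1 to S1pr3 FPKM in the KO libraries and 29.3%, 26.5% and 24.0% in the WT libraries, a difference of 43.4 percentage points, while S1pr2 went from 57.8 ± 3.07% in the WT to 24.4 ± 4.41% in the KO libraries (SD, n = 3 each). The S1pr1 share gave p = 0.1 by the two-sided exact permutation test, and the summed level was 70.2 ± 12.5 FPKM against 32.6 ± 1.94 FPKM. These shares depend on the gene lengths behind the FPKM values: with exonic lengths of GENCODE M21, the S1pr1 share was 83.0 ± 3.93% against 42.4 ± 2.86%, and S1pr1 was then the highest of the 3 on average in the WT libraries too. S1pr2 was the most affected, since a length of 2815 bases is implied by its FPKM and 7971 exonic bases are annotated.

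Of 13 other genes of S1P supply, transport, breakdown and reception, 9 were tested, 2 were higher and 2 lower (22.2% each way, near the 17.7% and 12.5% of all genes, or 6 higher and 0 lower under marker scaling), and the median log2 fold change was -0.03. Spns2, the transporter that releases S1P from endothelial cells, had 255, 234 and 292 counts in the KO libraries and 91, 80 and 102 in the WT libraries, a rise of 3.00-fold (adjusted p = 9.88e-05, edgeR). Ppap2c (also Plpp2), a lipid phosphatase, rose by 0.56 on the log2 scale (adjusted p = 0.0229, edgeR) and missed the threshold with the replicate number as a block (adjusted p = 0.057), without WT-1 (adjusted p = 0.0514) and without WT-2 (adjusted p = 0.0735). Sphk1, 1 of the S1P-making kinases, fell by 30.8% (adjusted p = 0.00128, edgeR), and Sgpp1, an S1P phosphatase, by 28.7% (adjusted p = 0.00305, edgeR), both calls being lost under marker scaling. Sphk2, Sgpl1 (the S1P lyase), Ppap2a, Ppap2b and Mfsd2b did not pass, and S1pr4, S1pr5, Sgpp2 and Apom were too low to test. Ppap2b, Ppap2a and Sgpl1, which had the highest mean FPKM of the list (40.7, 17.6 and 17.1), had log2 fold changes of -0.03, -0.09 and 0.00.

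All 12 listed genes of G protein coupling, which act downstream of these receptors, were tested, and 2 were higher and 2 lower, 16.7% each way, close to the 17.7% and 12.5% of all genes (9 higher and 0 lower under marker scaling). Arrb1, which encodes beta-arrestin 1, a protein that uncouples and internalises receptors, had 761, 723 and 1002 counts in the KO libraries and 158, 320 and 126 in the WT libraries, a log2 fold change of 2.11 ± 0.28 (SE, adjusted p = 0.000965, edgeR). The other arrestin gene, Arrb2, did not pass the test (0.14, 95% interval -0.05 to 0.33, adjusted p = 0.252, edgeR). Gna13 rose by 0.22 on the log2 scale (adjusted p = 0.0129, edgeR), a call lost without WT-2 (adjusted p = 0.0561). Gnai1 fell by 28.1% (adjusted p = 0.0123, edgeR), a call lost under marker scaling (adjusted p = 0.556), and Grk5, a receptor kinase, fell by 13.7% (adjusted p = 0.0353, edgeR), the latter missing the threshold or turning its sign in 10 of 15 other settings. Gnai2, Gnai3 and Gnas, the genes of the list with the highest mean FPKM (53.4, 48.5 and 37.7), did not pass, with log2 fold changes of 0.08, 0.06 and -0.11. The plot of the pathway genes shows 3 of them beyond 1 on the log2 scale among those that passed, namely Gpr182, Arrb1 and Spns2.

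**Figure D3:**
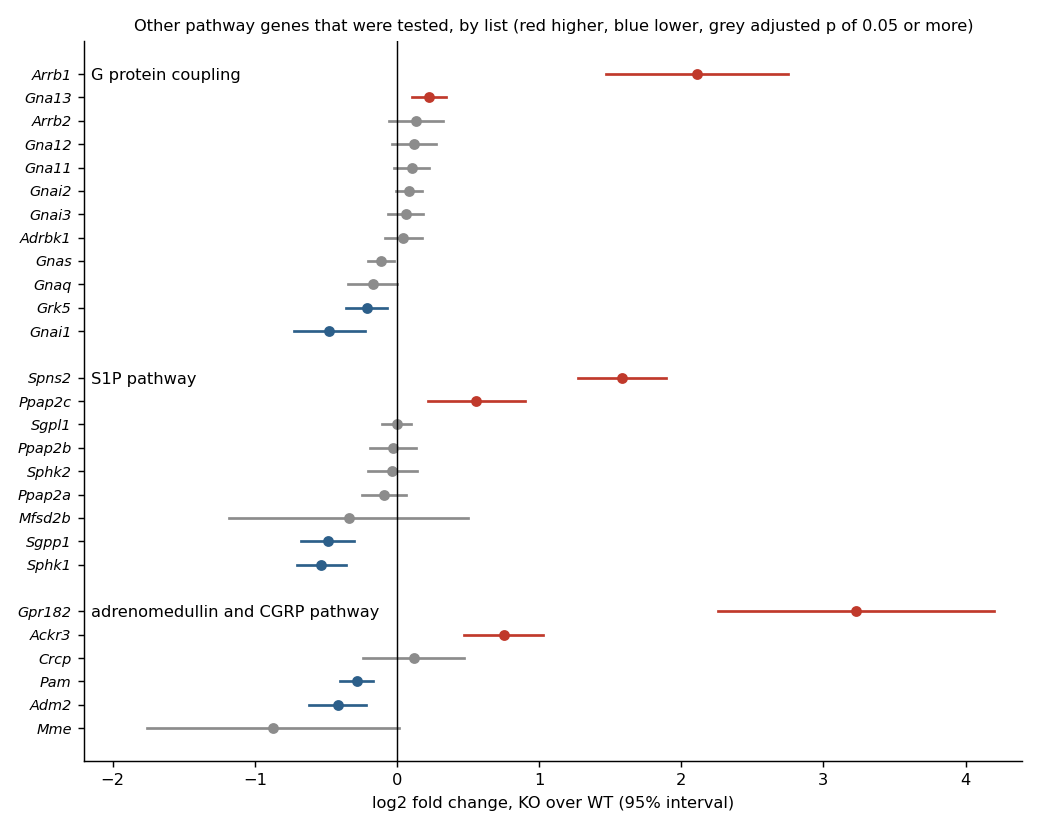
Log2 fold change, KO over WT, with its 95% interval (horizontal line) for the tested genes of the 3 pathway lists, red where higher, blue where lower and grey where the adjusted p was 0.05 or more (edgeR, 3 libraries a group). Most points lie near 0, and Gpr182 (3.23), Arrb1 (2.11) and Spns2 (1.58) lie apart.

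The order of the 10 genes by FPKM differed between the groups. In the WT libraries Adm led (54.9 FPKM on average), followed by S1pr2 (18.8), S1pr1 (8.71), S1pr3 (5.10), Calcrl (2.48), Apln (2.31), Ramp2 (1.34), Ramp1 (0.693), Ramp3 (0.105) and Aplnr (0.0848). Calcrl and Apln overlapped there, as did Ramp3 and Aplnr. In the KO libraries Apln led (94.4 FPKM), followed by S1pr1 (49.6), Adm (41.7), S1pr2 (16.8), Calcrl (16.1), Ramp2 (9.52), S1pr3 (3.81), Ramp3 (1.03), Ramp1 (0.486) and Aplnr (0.0138), and S1pr1 and Adm overlapped, as did S1pr2 and Calcrl. Apln thus moved from the sixth place to the first. The lengths implied by the FPKM values were 1.63 to 1.78 times the GENCODE M21 exonic lengths for Calcrl, Ramp2, Ramp3 and Adm and 0.353 times for S1pr2, and with the GENCODE lengths S1pr1 (8.71) stood above S1pr2 (6.65) in the WT libraries, and in the KO libraries Adm (74.0) stood above S1pr1 (49.6), and Calcrl (26.2) and Ramp2 (16.2) above S1pr2 (5.93). Comparisons of 1 gene between libraries do not depend on its length.

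Across the 6 libraries, the genes whose log2 level was most like that of Calcrl were Cd9, Rapgef3, Gimap6, Tpx2 and Gimap9 (Pearson r 0.9989 to 0.9992 among 9815 genes with a mean of at least 10 CPM), among those most like S1pr1 were Creld2, Ankrd28, Hsd11b1 and St3gal1 (0.9993 to 0.9997), and those most like Apln, which was added after its values had been seen, were Procr, Knstrn, Gm42835, Cd34 and Mdc1 (0.9993 to 0.9998). The libraries form a KO and a WT cluster, so r measures mainly the gap between them, and 257, 203 and 259 genes had an r over 0.99 with Calcrl, S1pr1 and Apln.

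Markers of endothelial cells, the main known site of several of these genes, moved in the same direction. Of 20 endothelial markers, all tested, 16 were higher and none lower in the KO libraries (edgeR), beside 17.7% higher and 12.5% lower over all genes. Their median was 2.43 on the log2 scale. Pecam1, a junction protein, had 720, 514 and 633 CPM in the KO and 42.4, 40.3 and 35.7 CPM in the WT libraries, a 15.8-fold difference, and Cdh5, which encodes VE-cadherin, 460, 309 and 360 CPM against 72.0, 79.8 and 75.9 CPM, a 4.95-fold difference. The summed level of the list was 3117, 2384 and 2728 CPM in KO-1, KO-2 and KO-3 and 898 to 906 CPM in the WT libraries, and KO-1 was the highest and KO-2 the lowest also for Calcrl, Apln and S1pr1. Ramp2 and Ramp3 had another order, Ramp2 being highest in KO-3 (58.9 CPM, against 58.1 in KO-1 and 41.7 in KO-2) and Ramp3 in KO-2 (2.63 CPM, against 2.46 in KO-1 and 2.32 in KO-3). Cldn5, Eng, Ptprb and Sox17 did not pass, with log2 fold changes of 0.00, -0.02, 0.08 and -0.82 (adjusted p = 0.993, 0.773, 0.216 and 0.0946, edgeR). No marker of the list was at 0 in all libraries. The fold changes of Calcrl, Ramp2, Ramp3 and S1pr1 lay between 2.47 and 3.22 on the log2 scale, within the range of those markers, and Apln at 5.32 lay above that of each of them. The part of endothelial RNA in these results was not tested, and in bulk RNA a change in the number of cells of a type and a change in RNA per cell cannot be told apart.

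The fibroblast, cardiomyocyte, mural cell and macrophage lists had similar medians, from -0.42 to -0.39 on the log2 scale. Each had a lower sum in every KO library than in every WT library. The lymphatic endothelial and neutrophil lists had medians of 0.91 and 1.95. Of 12 fibroblast markers, 11 were lower in the KO libraries, with a median of -0.41 and a summed level of 27903 to 32505 CPM against 38722 to 41246 CPM. This sum was the highest of the marker lists in every library, but it is not scaled for gene length or list size. Col1a1 alone had 11290 CPM in KO-1 and 17838 CPM in WT-2. Of 9 tested cardiomyocyte markers 7 were lower (median -0.42, sum 774 to 867 against 1094 to 1099 CPM). Of 8 tested mural cell markers 2 were higher and 4 lower (median -0.41, sum 891 to 910 against 982 to 1003 CPM). Of 10 macrophage markers 2 were higher and 5 lower (median -0.39, sum 1269 to 1308 against 1579 to 1653 CPM). The shares higher, 25% of the mural cell and 20% of the macrophage markers, lay near the 17.7% of all genes. Of all genes 12.5% were lower. The log2 fold changes of Adm (-0.43) and S1pr3 (-0.45) were of the size of these medians, and that of S1pr2 (-0.20, 95% interval -0.34 to -0.05) was smaller. Of 4 tested lymphatic endothelial markers 2 were higher and 1 lower (sum 333 to 344 against 229 to 243 CPM). Those higher were Lyve1, a hyaluronan receptor of lymphatic endothelium that some macrophages also carry, at 89.0 to 113 CPM against 1.02 to 1.96 CPM (67.4-fold, adjusted p = 1.94e-06, edgeR), and Flt4, the receptor for VEGF-C, at 3.59-fold (adjusted p = 2.04e-05, edgeR). The lower one was Pdpn, with Prox1, the defining transcription factor, at 4.48 to 6.65 CPM in all libraries and Ccl21a at 0. Of 3 tested neutrophil markers 2 were higher, S100a8 and S100a9, by 2.99 and 1.95 on the log2 scale (sum 6.45 to 8.93 against 3.14 to 3.91 CPM). Both passed the filter only through the KO libraries, so that count is a description, and S100a8 was at 3.86 without WT-1. The single lymphocyte marker tested was not called and 4 of 7 were at 0, and no erythroid marker was high enough to be tested. Their part in the results was not tested.

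**Figure D4:**
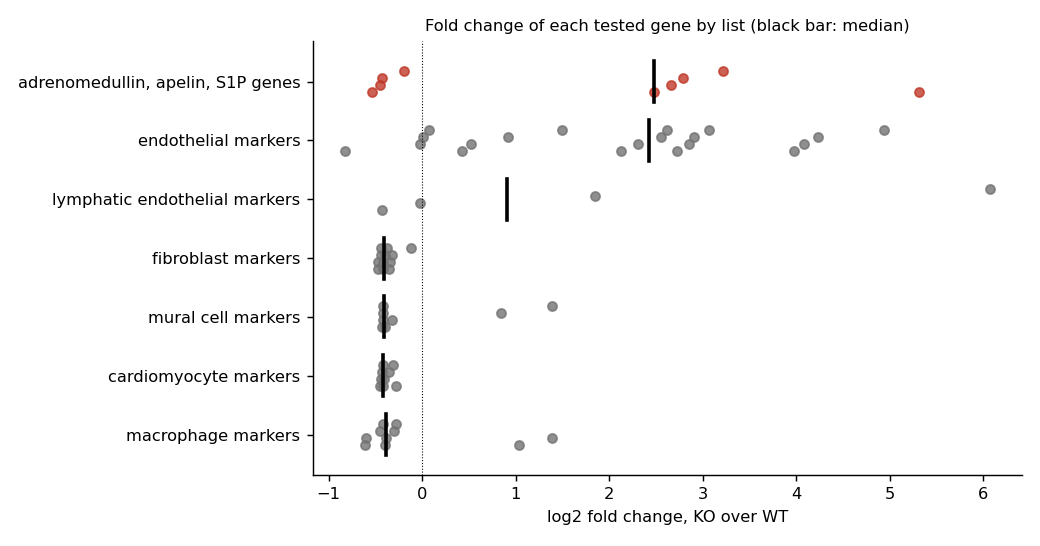
Log2 fold change, KO over WT, of each tested gene (points, height within a row arbitrary) in the adrenomedullin, apelin and S1P genes (red) and in 6 marker lists (grey), with the median of each list as a black bar. The red points fall into a group below 0 and a group above 2, and the medians are 2.43 for the endothelial and -0.41 for the fibroblast markers.

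**Figure D5:**
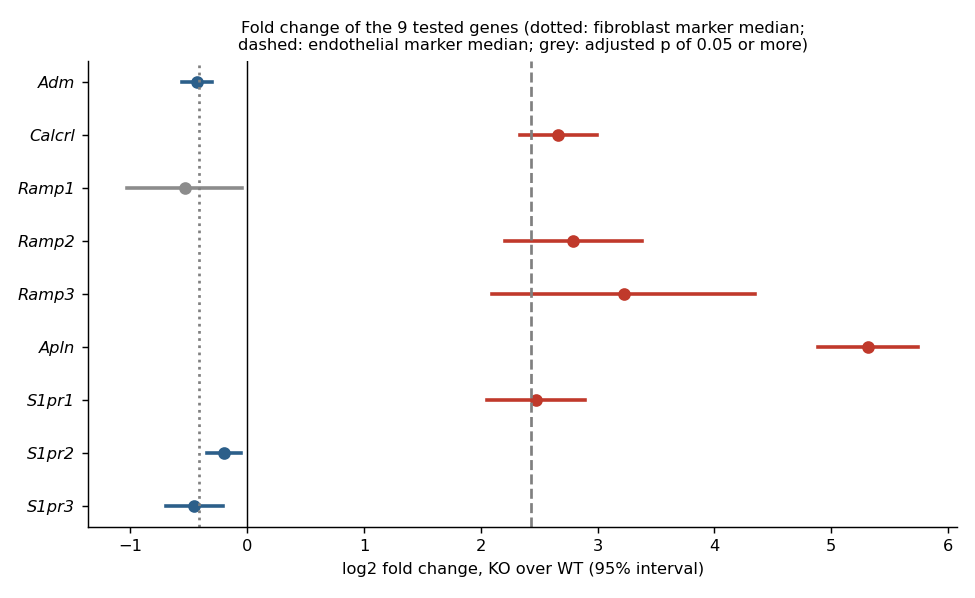
Log2 fold change, KO over WT, with its 95% interval for the 9 tested genes, red where higher, blue where lower and grey for Ramp1 (adjusted p = 0.0954, edgeR, 3 libraries a group). The intervals of Calcrl, Ramp2, Ramp3 and S1pr1 include the endothelial marker median of 2.43 (dashed line), and that of Apln lies above it. Those of Adm, Ramp1 and S1pr3 include the fibroblast marker median of -0.41 (dotted line), and that of S1pr2 lies above it. Mural cell, cardiomyocyte and macrophage markers had medians of -0.41, -0.42 and -0.39.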

How the data were processed

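Per the labels and the study's methods, RNA enriched with oligo(dT) beads was made into strand-specific libraries, and reads were mapped to mm10 with HISAT2. The submitters' processing notes also name GRCm38.p4 and edgeR, and the counting tool and its strand setting are not given in the sources used here. The authors deposited whole-number counts per gene and FPKM values for 34745 genes in each of 6 libraries (3 KO, 3 WT). Every per-sample column was used.

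The members and lists were chosen with earlier results of these data known. All 10 genes were named, with overlapping genes, pathway genes past the threshold with an absolute log2 fold change of at least 1 and the 3 highest of each list by mean FPKM. Other pathway genes that passed, Arrb2, Flt4, Pdpn, Nos3, the neutrophil markers that passed and the endothelial markers that did not were named after their values were seen.

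Counts were fitted with edgeR 4.0.16 (R 4.3.3; filterByExpr, TMM, quasi-likelihood test, Benjamini-Hochberg adjustment over 14084 genes, threshold 0.05). The biological coefficient of variation was 10.9%. Replicate pairs differed beyond sampling noise. CPM values were scaled by TMM. Shares used the deposited FPKM and two-sided exact permutation tests. Alternatives were DESeq2 1.42.0, limma 3.58.1 on log2(FPKM + 1) or log2(FPKM + 0.1), other filters and scalings (marker scaling sets library size by cardiomyocyte and macrophage markers), a replicate block, each library left out and, added after the data were seen, GENCODE M21 gene lengths. Scripts were tested on simulated data. Sequences are from RefSeq (GRCm38.p6).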

Additional observations from a re-analysis of the deposited data

How the results depend on the processing

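The rises of Calcrl, Ramp2, Ramp3, Apln and S1pr1 kept their direction and call in all 15 alternatives (log2 fold changes of 2.28 to 3.06, 2.18 to 3.19, 0.88 to 4.46, 4.82 to 5.71 and 2.26 to 2.87), and those of Gpr182, Ackr3, Spns2 and Arrb1 did too. Ramp3 and Gpr182 entered the test only through the KO libraries, so this says nothing of their stability. Marker scaling moved the median of all genes by 0.391 on the log2 scale, so that falls of about that size come to lie near 0 by its construction, and the counts over all genes went from 2488 higher and 1760 lower to 8404 and 47. By library size only and with the upper quartile, Adm (adjusted p = 0.00123 and 0.000583) and S1pr3 (0.0183 and 0.00902) kept their calls. A fold change above 2 in addition left 844 and 38, and without KO-3 the lower count was 1131, the low end of a range up to 1614 with a library left out. Of the 10 genes described, none was lower under marker scaling (0) or with a fold change above 2 (0), and 1 to 2 were lower with a library left out, the 1 without KO-3. The log2 fold change of Adm was -0.041 under marker scaling (adjusted p = 0.583), that of S1pr3 -0.064 under marker scaling and -0.53 to -0.39 with a library left out, where it missed the threshold without KO-3 (-0.41). Ramp1 passed by limma, at -0.19 with log2(FPKM + 1) and -0.44 with log2(FPKM + 0.1). S1pr2 missed the threshold without a filter (-0.20), with DESeq2 (-0.20), by library size only (-0.16), by limma (-0.16 with both pseudocounts), with the replicate block (-0.20) and without each library (-0.24 to -0.16), and was 0.19 under marker scaling. The cause was not tested.

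Signs also turned for genes with values near 0 or under marker scaling, where the log2 fold changes were 0.11 for Pam, 0.39 for Sgpl1, 0.30 for Ppap2a, 0.37 for Ppap2b, 0.28 for Gnas, 0.18 for Grk5, 0.17 for Kdm5b and 0.37 for Eng. By library size only they were 0.032 for Sgpl1, 0.0077 for Ppap2b and 0.0145 for Eng, and by limma with the pseudocounts of 1 and 0.1 they were 0.0299 and 0.0315 for Sgpl1, 0.0037 with both for Ppap2b, and 0.0133 and 0.0136 for Eng. With the upper quartile Cldn5 was at -0.037. With a library left out the ranges were -0.0126 to 0.0139 for Sgpl1, -0.098 to 0.034 for Ppap2b, -0.14 to 0.25 for Cldn5 and -0.0313 to 0.0154 for Eng.

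With the replicate number as a block the log2 fold changes of Calcrl and Apln were 2.66 and 5.29. Same-numbered KO and WT libraries correlated at 0.0168, 0.0172 and 0.0307 in their deviations from the group means, none above 0.1, so the numbers are not taken to pair them, although each value was the highest for its library. Of the 9 tested genes described, the block ended the call of S1pr2 alone, and it also ended that of Ppap2c and gave one to Kdm5b (adjusted p = 0.0271, edgeR), which also passed with the upper quartile (0.0324) and without WT-1 (0.0188). Depth limits Aplnr (0 to 10 counts), Ramp3 in the WT libraries and Ramp1.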
